A study of Mus musculus with 4 samples.

Results

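The 10 genes described here are linked to quiescence of lymphocytes and to signalling through FOXO1, and were followed in thymic regulatory T cells: Klf3, Klf6, Klf13, Foxo1, Foxp1, Btg1, Btg2, Tob1, Pik3ip1 and Txnip. They were taken by symbol from the deposited count table, where all 10 of 10 were found among 27998 genes. The series profiled single sorted thymocytes by 3' droplet RNA sequencing, in which each captured transcript is counted once through its unique molecular identifier (UMI). It compared mice lacking IL-2 or IL-15 with controls, and its question was how each cytokine shapes regulatory T cells in the thymus.

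The 4 samples were 1 each of Rag2-Gfp Foxp3-Thy1a mice on the B6 strain that were IL2 wt/wt, IL2 o/o, IL15 wt/wt or IL15 o/o, where o/o is labelled as the knockout. All were 3 weeks old, and every group, controls included, carried both reporters. Rag2-Gfp marks cells that recently expressed the recombinase gene, which in the thymus picks out newly formed cells, and Foxp3-Thy1a puts Thy1.1 on cells with an active Foxp3 locus. The sort gate, CD4+CD8-Thy1.1+GFP+, kept new CD4 single-positive cells with the Foxp3 reporter. How many animals went into a sample, and which cells lost each cytokine, were not given in the sources used here. Cells of the 4 samples sit in 1 table, and a number from 1 to 4 at the end of each barcode separates them. No file or label used here ties a number to a genotype. They are therefore called libraries 1 to 4, and no genotype was compared.

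Quiescence in T cells is an actively kept state of small size, low metabolism and no division. Without strong antigen or cytokine signals, FOXO1 stays in the nucleus and keeps up genes for recirculation and survival. PI3 kinase and AKT signalling, which IL-2 can trigger, sends FOXO1 out of the nucleus and supports growth. Among the genes followed here, Pik3ip1 encodes a membrane inhibitor of PI3 kinase, and Txnip encodes an arrestin-like protein that restrains glucose uptake and binds thioredoxin. Btg1, Btg2 and Tob1 encode antiproliferative proteins that recruit deadenylases to messenger RNA. Foxp1 encodes a forkhead repressor that keeps naive T cells quiescent, and Klf3, Klf6 and Klf13 encode zinc-finger factors that bind CACCC-like sites. S1pr1 encodes the receptor that lets mature thymocytes leave the thymus, and Il2ra encodes the alpha chain of the IL-2 receptor, CD25.

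Promoters are shown for 3 of the genes because forkhead and KLF proteins are themselves among the members. RefSeq windows on build GRCm38.p6 were found for 10 of 10 members, and the 250 bases before each start were searched on both strands for TGTTTAC (forkhead), CACGTG (E box), and CACCC and GGGTGGG (KLF). The RefSeq starts used for Klf3, Klf6, Foxo1, Pik3ip1 and Foxp1 lie inside the GENCODE genes given further on. Their windows thus hold transcribed sequence by that annotation, though only at the very end for Klf6 and Foxo1. A reverse match of GGGTGGG always holds CACCC, so those motifs overlap. The forkhead letters lay in 3.17% of 32851 promoters and in those of 2 members, Txnip and Btg1. The E box lay in 6.02% of promoters and in 1 member's, Klf6. CACCC lay in 52.0% of promoters and in those of 6 members, and GGGTGGG in 15.8% and in those of 4 members. The windows below are chr3:96557707-96557956 (+ strand) for Txnip, chr10:96616751-96617000 (+ strand) for Btg1 and chr11:94211204-94211453 (+ strand) for Tob1. Capitals mark the forkhead match in Txnip, 121 bases before the start, and in Btg1, 204 bases before it, and the KLF matches in Tob1, the member whose levels followed the others least. A match describes letters in this window and nothing about binding.

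Txnip: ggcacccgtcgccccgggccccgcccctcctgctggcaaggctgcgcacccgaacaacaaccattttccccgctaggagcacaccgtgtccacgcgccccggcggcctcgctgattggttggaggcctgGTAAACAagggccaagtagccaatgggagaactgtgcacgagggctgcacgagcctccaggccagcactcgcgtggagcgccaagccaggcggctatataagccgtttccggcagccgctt
Btg1: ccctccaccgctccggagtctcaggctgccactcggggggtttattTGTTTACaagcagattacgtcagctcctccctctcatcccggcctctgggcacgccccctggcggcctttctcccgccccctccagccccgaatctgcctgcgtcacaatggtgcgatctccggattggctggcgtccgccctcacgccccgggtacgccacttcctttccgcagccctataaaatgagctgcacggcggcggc
Tob1: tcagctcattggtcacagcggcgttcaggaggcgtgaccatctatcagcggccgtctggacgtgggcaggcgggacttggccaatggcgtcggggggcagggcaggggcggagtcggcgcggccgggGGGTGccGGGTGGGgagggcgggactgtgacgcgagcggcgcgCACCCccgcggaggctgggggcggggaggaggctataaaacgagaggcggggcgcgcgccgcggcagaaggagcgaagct

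Counts are over whole annotated genes, UTRs included, with positions from the GENCODE annotation on GRCm38. Klf3 (ENSMUSG00000029178) lies at chr5:64803388-64832901 on the plus strand and had 3113 UMIs in 2234 cells. Klf6 (ENSMUSG00000000078) lies at chr13:5861482-5870394 on the plus strand and had 2492 UMIs in 1886 cells. Klf13 (ENSMUSG00000052040) lies at chr7:63886351-63938915 on the minus strand and had 6766 UMIs in 4111 cells. Klf13 had the most UMIs of the KLF members. Foxo1 (ENSMUSG00000044167) lies at chr3:52268336-52353221 on the plus strand and had 4653 UMIs in 3282 cells. Foxp1 (ENSMUSG00000030067) lies at chr6:98925338-99522721 on the minus strand and had 7737 UMIs in 4600 cells. Among the antiproliferative genes, Btg1 is by far the most counted and Tob1 the least. Btg1 (ENSMUSG00000036478) lies at chr10:96617006-96622809 on the plus strand and had 61380 UMIs in 8117 cells. Btg2 (ENSMUSG00000020423) lies at chr1:134075170-134079120 on the minus strand and had 7010 UMIs in 4160 cells. Tob1 (ENSMUSG00000037573) lies at chr11:94211454-94215495 on the plus strand and had 1398 UMIs in 1192 cells. The signalling and metabolic members lie in between. Pik3ip1 (ENSMUSG00000034614) lies at chr11:3330401-3342971 on the plus strand and had 4326 UMIs in 3066 cells. Txnip (ENSMUSG00000038393) lies at chr3:96557957-96561883 on the plus strand and had 4299 UMIs in 3006 cells. Annotated antisense genes overlap Klf3, Foxo1, Pik3ip1 and Txnip; that of Txnip, Gm15441, had 55 UMIs, and that of Foxo1, Gm20402, had 3. No source used here says whether strand was used in counting.

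The table held 8273 cells: 1609, 2452, 2037 and 2175 in libraries 1 to 4. Total UMIs per library lay between 5717732 and 11274713, and the median per cell between 2501 (library 3) and 3857 (library 1). Library 3 stood apart. Il2ra had a UMI in 6.82% of its cells, against 32.2% to 39.4% in the others. Haemoglobin genes summed to 1873 counts per 1000000 UMIs (CPM) there and to at most 6.21 CPM elsewhere, and 11 of its cells held 5 or more UMIs of 17 G2 and M phase genes, against 135 to 261. Its summed CPM of 14 early response genes was 3664, against 2592 to 2727. The regulatory T cell marker Ikzf2 had 31639 UMIs and Foxp3 441, while Csf1r, Itgax, Foxn1 and Ncr1, which define myeloid cells, dendritic cells, thymic epithelium and natural killer cells, were at 0. Less specific genes of the same lists were counted, with 4489 UMIs of Cst3, 499 of Epcam and 4627 of Nkg7. The 7 markers of CD4+CD8+ double-positive thymocytes summed to 53.2 to 114 CPM. Barcode sequences occurring in more than 1 library numbered 27, covering 54 cells. Each genotype is 1 sample and cells are not replicates, so comparisons are given as ratios with the value in each library. The 95% intervals cover counting error only. CPM was read within a gene and not between genes.

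Between libraries, 9 of 10 members were highest in library 3, and Tob1 was highest in library 2. The ratio of the highest to the lowest library reached 1.5-fold for 5 members, and 27.8% of 8071 genes with 200 or more UMIs reached it. Over all genes, 13.5% reached it with library 3 the highest, and so did the same 5 members. Klf6, a factor that is also an early response gene, stood at 62.0, 55.3, 137 and 71.5 CPM in libraries 1 to 4. Txnip stood at 140.3, 108, 206 and 95.2 CPM, and Btg1 at 1573, 1465, 3074 and 1782 CPM. Library 3 is thus the high library for all 3, with libraries 1, 2 and 4 lying closer together. Pik3ip1 stood at 145, 105, 186 and 111 CPM, a 1.77-fold range. Btg2 stood at 189, 177, 274 and 235 CPM, a 1.55-fold range. Klf13 at 181, 181, 264 and 214 CPM and Klf3 at 81.7, 81.9, 118 and 104 CPM came just under 1.5-fold. Foxp1 stood at 238, 204, 275 and 239 CPM, though 858 UMIs were counted for Gm20696, a gene model overlapping it on the same strand. Foxo1 varied least, at 134, 131, 161 and 143 CPM, a 1.23-fold range. Tob1 stood at 35.2, 45.9, 41.5 and 43.7 CPM, with library 1 the low one.

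**Figure D1:**
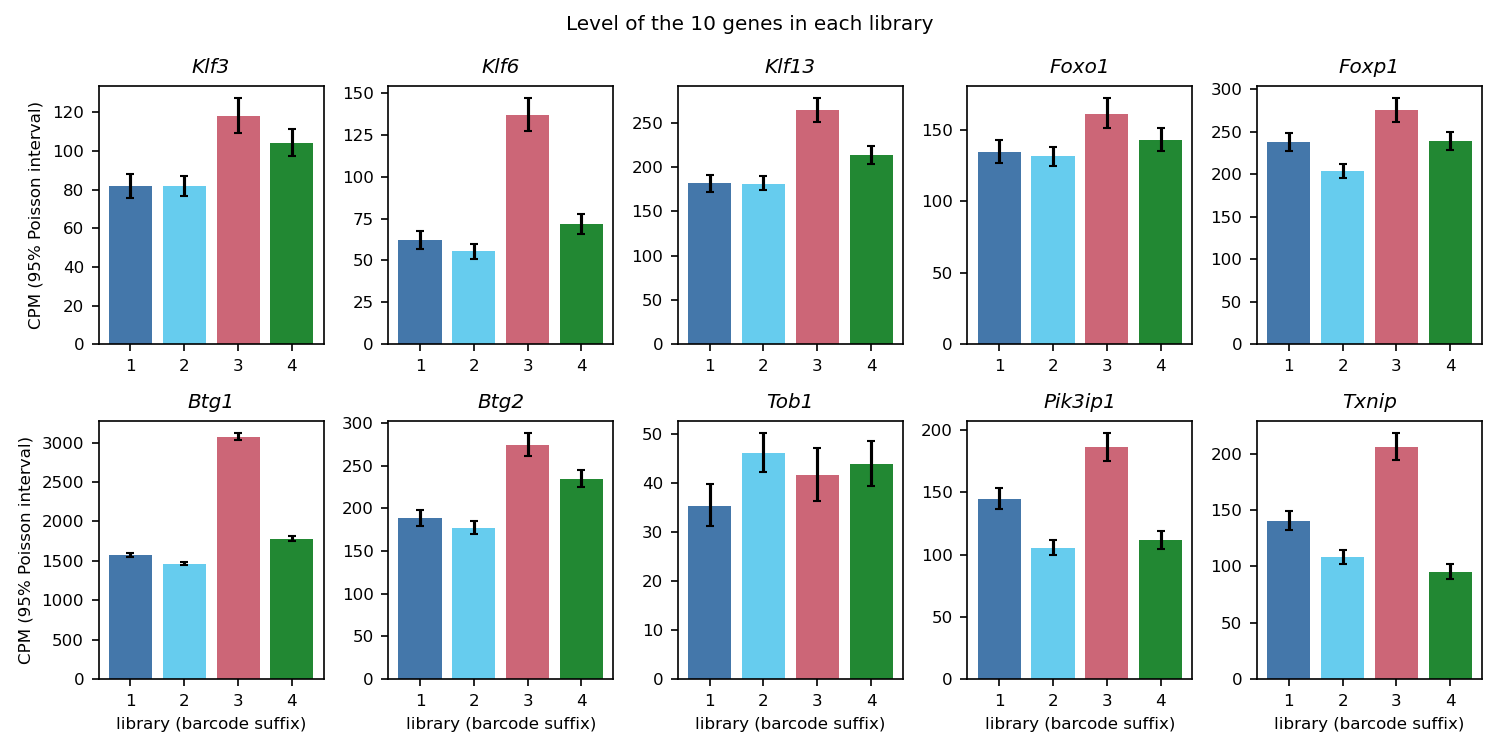
Level of each member in CPM (vertical axis) in libraries 1 to 4 (horizontal axis), with bars for the exact Poisson 95% interval. Library 3 is the highest for 9 of 10 genes, with Btg1 at 3074 CPM against 1465 to 1782 in the others.

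Without library 3, 0 of 10 members reached 1.5-fold between libraries. When each cell counted alike instead of by its UMIs, 3 did. Among cells with no Il2ra UMI, library 3 was still high for Btg1 (1915, 1763, 3114 and 2031 CPM) and Klf6 (71.1, 57.3, 141 and 70.7 CPM). Pik3ip1 in those cells stood at 205, 151, 194 and 142 CPM, so library 1 was the highest. In the same cells Foxo1 stood at 162, 161, 166 and 174 CPM, a narrow range. The genotype behind library 3 is not known, and the parts that its shallow depth and early response genes play in these levels were not tested. In G1 cells, where haemoglobin genes summed to 12.7 CPM over all libraries, 4 members reached 1.5-fold. The share of all genes reaching 1.5-fold was not computed in G1 cells, without library 3 or with each cell counted alike. A level in CPM can differ through the share of cells with a transcript, the number per cell or the total UMIs per cell. Btg1 had a UMI in 98.5%, 97.6%, 98.5% and 98.1% of cells in libraries 1 to 4, so that share hardly differed. Its UMIs numbered 12410, 16514, 17576 and 14880, in 1609, 2452, 2037 and 2175 cells. CPM is relative to total UMIs, whose median per cell was 3857, 3640, 2501 and 3019. How much of the CPM difference lay in each part was not tested.

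Cells with an S1pr1 UMI were compared with the rest to ask how the members track the exit receptor. S1pr1 was detected in 3955 cells and undetected in 4318, with a median of 3233 and 3024 UMIs per cell. Ratios were pooled over the 4 libraries by the Mantel-Haenszel method. A gene was called where it had 200 or more UMIs, differed 1.5-fold or more, had an interval leaving out no change, and lay on 1 side in every library with 20 or more cells on both sides. All 10 members had log2 ratios above 0, as did 50.3% of the 8070 genes tested, and the interval of Btg1 included 0. The members' median was 0.26, against 0.00 for all genes. Only Klf3 was called higher, 1 of 10 members, where 0.297% of all genes were. No member was called lower, and 2.14% of genes were.

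Klf3, a repressor of the KLF family, stood at 100.1 CPM in S1pr1-detected and 62.3 in undetected cells of library 1, and at 99.2 and 62.5 in library 2. It stood at 146 and 97.99 CPM in library 3, and at 127 and 84.0 in library 4. The detected cells were the higher in each library. The pooled log2 ratio was 0.63 (0.53 to 0.73), 1.55-fold, which is near the threshold, and it was 0.54 and not called when each cell counted alike. Txnip (145 against 115 CPM, log2 ratio 0.39) came next. Foxo1 stood at 156 against 125 CPM (0.34) and Klf13 at 225 against 183 CPM (0.33). These 3 lay on the same side in all 4 libraries without reaching 1.5-fold. Log2 ratios of Klf6, Tob1, Pik3ip1, Foxp1 and Btg2 were between 0.16 and 0.28, and that of Btg1 was 0.02. The other genes called higher included Cenpf (2.01-fold) and Hmmr (1.72-fold), which act in mitosis. The 17 G2 and M phase genes summed to 1250 CPM in S1pr1-detected and 718 in undetected cells, and 3 of the 17 were called higher. Double-positive thymocyte markers summed to 35.0 against 121 CPM, and haemoglobin genes to 8.91 against 628 CPM. The ratio of Klf3 was 0.63 without cells holding 5 or more G2 and M phase UMIs, 0.64 in G1 cells only, 0.65 without cells holding 3 or more double-positive marker UMIs and 0.65 without library 3. Klf3 was the 1 member called at each of these settings, for which the share of all genes called was not computed.

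Klf3 also moved with the amount of S1pr1. It stood at 75.1, 108, 115 and 128 CPM in cells with 0, 1, 2 and 3 or more S1pr1 UMIs. Klf13 stood at 183, 211, 239.8 and 253 CPM over the same steps. Both were higher at every further step, although median UMIs per cell also went from 3024 to 3540. Tob1 had no such order, at 38.5, 44.0, 53.5 and 39.4 CPM. The CPM at these steps were summed over all libraries without adjustment for library. S1pr1 itself stood at 228 CPM in library 3 and at 173 to 181 CPM in the others. Detection of a single gene in droplet data is partly chance. The 103 cells with 3 or more double-positive marker UMIs were expected to hold little S1pr1. Of them, 10.7% (exact interval 5.45 to 18.3%) had an S1pr1 UMI, against 48.3% of the rest, with median depths of 2561 and 3145 UMIs. They passed the same sort gate, and what these cells are was not tested. Their share is thus not a measure of chance detection.

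Cells with an Il2ra UMI went the other way. Il2ra was detected in 2437 cells and undetected in 5836, and 0 of 10 members had a log2 ratio above 0, against 45.1% of genes tested. The members' median was -0.61, and that of all genes -0.03. Called lower were 5 of 10 members, namely Pik3ip1, Txnip, Klf3, Foxo1 and Klf13, where 3.06% of genes were; none was called higher, where 3.97% were. Cells with Il2ra were deeper, with a median of 4411 against 2783 UMIs. These ratios are not adjusted for that gap, and ratios within depth groups are given further on.

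Pik3ip1, the PI3 kinase inhibitor, stood at 83.2 CPM with Il2ra and 205 without in library 1, and at 58.5 and 151 in library 2. It stood at 108 and 194 CPM in library 3, and at 68.6 and 142 in library 4. In every library the Il2ra-detected cells lay well below, and the highest of them (108) was under the lowest undetected value (142). The pooled log2 ratio was -1.22 (-1.33 to -1.11), 2.33-fold, and 17th lowest of 8070 genes. Txnip, the glucose-uptake restrainer, stood at 83.7 against 161 CPM over all libraries (log2 ratio -0.81). Klf3 stood at 65.0 against 113 CPM (-0.75). Foxo1, the transcription factor that AKT removes from the nucleus, stood at 102 against 166 CPM (-0.69). Klf13 stood at 146 against 243 CPM (-0.67). All 4 were lower in each of the 4 libraries. Just under the threshold were Btg2 (158 against 247 CPM, -0.56) and Btg1 (1311 against 2214 CPM, -0.54). These CPM are summed over all libraries and the log2 ratios are pooled within libraries, so a CPM pair can lie farther apart than its ratio. Foxp1 (-0.34) and Klf6 (-0.19) lay closer to no change, and Tob1 stood at 42.0 against 42.1 CPM (-0.01; -0.17 to 0.15).

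**Figure D2:**
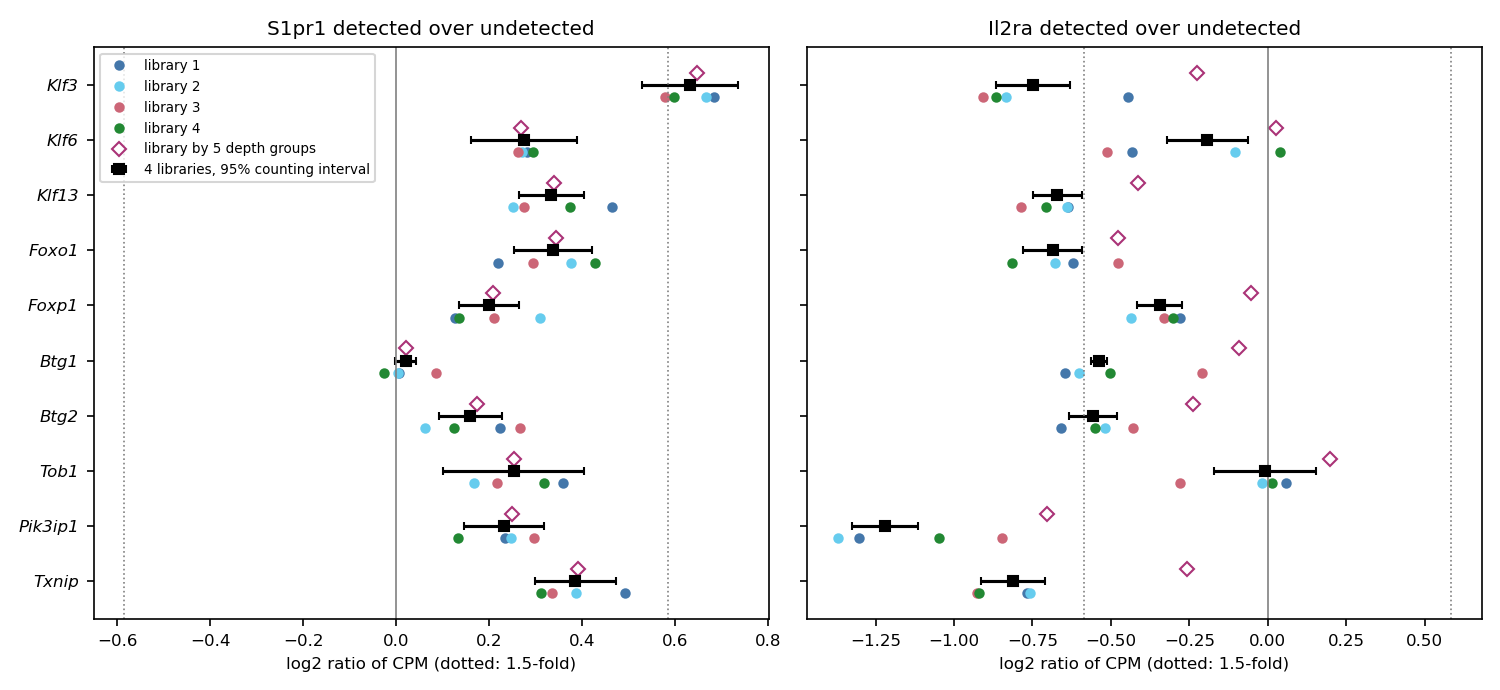
Log2 ratio of CPM for each member (vertical axis) in S1pr1-detected over undetected cells and in Il2ra-detected over undetected cells (horizontal axis), pooled over libraries with 95% counting intervals, with the libraries as small points and diamonds for the ratio within depth groups. Klf3 is the only member past 1.5-fold with S1pr1, and Pik3ip1 lies farthest below 0 with Il2ra, at -1.22.

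The Il2ra ratios moved with depth. With cells of each library split by UMIs into 5 equal depth groups and ratios pooled over the groups, 1 member was called, Pik3ip1 at -0.70. Foxo1 was then at -0.48, Klf13 at -0.42, Txnip at -0.26, Klf3 at -0.23 and Btg1 at -0.09, while Tob1 was at 0.20. With each cell thinned to 1811 UMIs and 7447 cells kept, Pik3ip1 was at -0.87 and again the 1 member called, and Klf3, Txnip, Klf13 and Foxo1 lay between -0.43 and -0.33. Il2ra detection was read again on the thinned counts, which put 1343 cells on the detected side and 6104 on the other. The sides were thus not the same cells as in the main comparison. At the depth-group setting 0.83% of all genes were called lower, and after thinning 1.27% were. The G2 and M phase genes summed to 1356 CPM with Il2ra and 720.2 without. In G1 cells only, and without cells holding 5 or more G2 and M phase UMIs, 5 members were called lower, with Txnip at -0.79 and -0.75. Depth groups within G1 cells left 1 member called, with Klf3 at -0.23 and Txnip at -0.25. Double-positive markers summed to 47.9 CPM with Il2ra and 100.3 without, and without cells holding 3 or more UMIs of them 5 members were called. Haemoglobin genes summed to 1.998 CPM with Il2ra and 546 without. Of the 103 cells with double-positive markers, 23.3% (15.5 to 32.7%) had an Il2ra UMI, against 29.5% of the others, so those cells give no lower level to read Il2ra detection against. With library 3 left out, which holds nearly all haemoglobin UMIs and few Il2ra-detected cells, 5 members were called lower. The share of all genes called was computed for the main comparison, the depth groups over all cells and the thinned cells only. The part that cycling cells, double-positive cells or library 3 play in these ratios was not tested.

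More Il2ra went with less Pik3ip1: 171, 80.7, 73.1 and 52.3 CPM in cells with 0, 1, 2 and 3 or more Il2ra UMIs. Klf3 stood at 113, 80.1, 64.2 and 42.9 CPM and Foxo1 at 166, 111, 108 and 85.3 CPM over those steps. Tob1 stayed within 38.8 to 43.4 CPM. Median UMIs per cell went from 2783 to 5328 along the same steps. The CPM at these steps were summed over all libraries without adjustment for library. Library 3 gave 1898 of the 5836 cells without Il2ra and 139 of the 2437 cells with it.

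Taking both receptors together gave 4 classes: 2787 cells with S1pr1 and without Il2ra, 3049 with neither, 1168 with both and 1269 with Il2ra alone. The classes differ in depth, with medians of 2881, 2681, 4451 and 4379 UMIs in that order. Library 3 gave 804, 1094, 50 and 89 cells to them in that order, and the sums over all libraries were not adjusted for this. Over all libraries, 8 of 10 members were highest in cells with S1pr1 alone, as were 28.5% of genes. Btg1 was highest in cells with neither and Tob1 in cells with both. Some orders were narrow with overlapping intervals, as for Klf6 (86.2 against 84.4 CPM with neither) and Btg2 (248 against 246). All 10 were lowest in cells with Il2ra alone, as were 36.5% of genes. Intervals overlapped there for Btg1 (1305 against 1318 CPM with both) and Tob1 (36.0 against 40.2 CPM with neither). Klf3 stood at 131, 96.3, 86.5 and 45.1 CPM in that order of classes. Foxo1 stood at 181, 151, 118 and 88.0 CPM. Pik3ip1 stood at 179, 164, 78.5 and 62.6 CPM, so Il2ra separated its classes more than S1pr1 did. Txnip stood at 175, 146, 98.5 and 70.0 CPM, and Klf13 at 259, 227, 173 and 121 CPM. The S1pr1 ratio of Klf3 was 0.94 in Il2ra-detected cells, where 0.682% of genes were called higher with it, and 0.47 in the rest, where 0.231% of genes were called and it was not. Within depth groups the ratios were 0.95 and 0.52. The difference between them was not tested. Pik3ip1, Txnip and Foxo1 were called lower with Il2ra in S1pr1-detected cells (-1.12, -0.71 and -0.59), where 1.28% of genes were, and in undetected ones (-1.31, -0.90 and -0.76), where 4.58% were. Within depth groups, where the share of all genes was not computed for these cells, Pik3ip1 was called in both, at -0.64 and -0.74. Txnip, at -0.23 and -0.25, and Foxo1, at -0.41 and -0.52, were not.

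**Figure D3:**
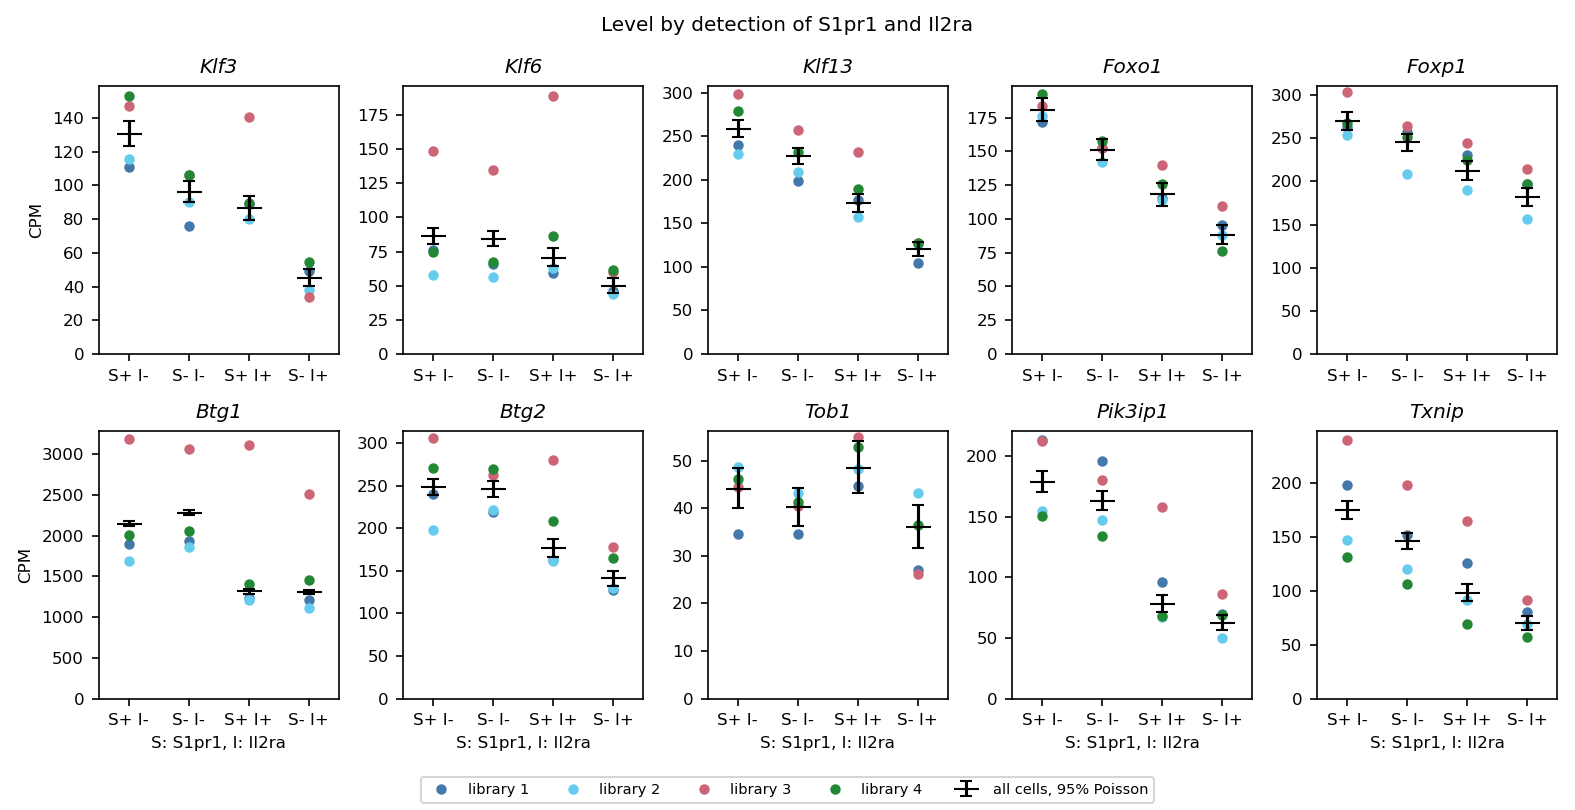
CPM of each member (vertical axis) in the 4 classes of cells by S1pr1 and Il2ra detection (horizontal axis), with the 4 libraries as points and all libraries as a bar. All 10 members are lowest in cells with Il2ra alone over all libraries, narrowly so for Btg1 and Tob1. Klf3 is at 45.1 CPM there and 131 CPM in cells with S1pr1 alone.

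The share of a cell's UMIs given to the members was smaller in deep cells. This comparison was added after the data were seen. Cells of each library were split by UMIs into 5 equal depth groups, with overall medians of 1816, 2559, 3297, 4450 and 7342. In the deepest group over the shallowest, 10 of 10 members were called lower, where 22.9% of 6466 genes were, and 15.8% of genes were called higher. The members' median log2 ratio was -1.22, and that of all genes -0.13. Txnip stood at 58.4 against 269 CPM (-2.17), Pik3ip1 at 63.0 against 284 (-2.13) and Klf3 at 44.6 against 196 (-2.11). Those 3 differed most. Btg1 stood at 989 against 3114 CPM (-1.60), and Btg2, Foxp1 and Klf13 had ratios of -1.27, -1.18 and -1.15. Foxo1 (-1.004), Klf6 (-0.99) and Tob1 (-0.68) differed least.

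The number of UMIs per cell tells the other side of this. Klf3 had a mean of 0.354, 0.395, 0.395, 0.376 and 0.362 UMIs per cell from the shallowest to the deepest group. Pik3ip1 went from 0.514 to 0.511 and Txnip from 0.486 to 0.473. Their counted UMIs were thus about as many per cell in deep as in shallow cells, while the total counted was larger. Whether deep cells held more RNA or had more of it captured was not tested. Foxo1 went from 0.393 to 0.873 and Tob1 from 0.0905 to 0.249 UMIs per cell, and Btg1 from 5.63 to 8.02. The deepest group held 2088 CPM of G2 and M phase genes and the shallowest 222 CPM. Of 9 early response genes tested 5 were called lower in the deepest group, where 22.9% of all genes were.

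**Figure D4:**
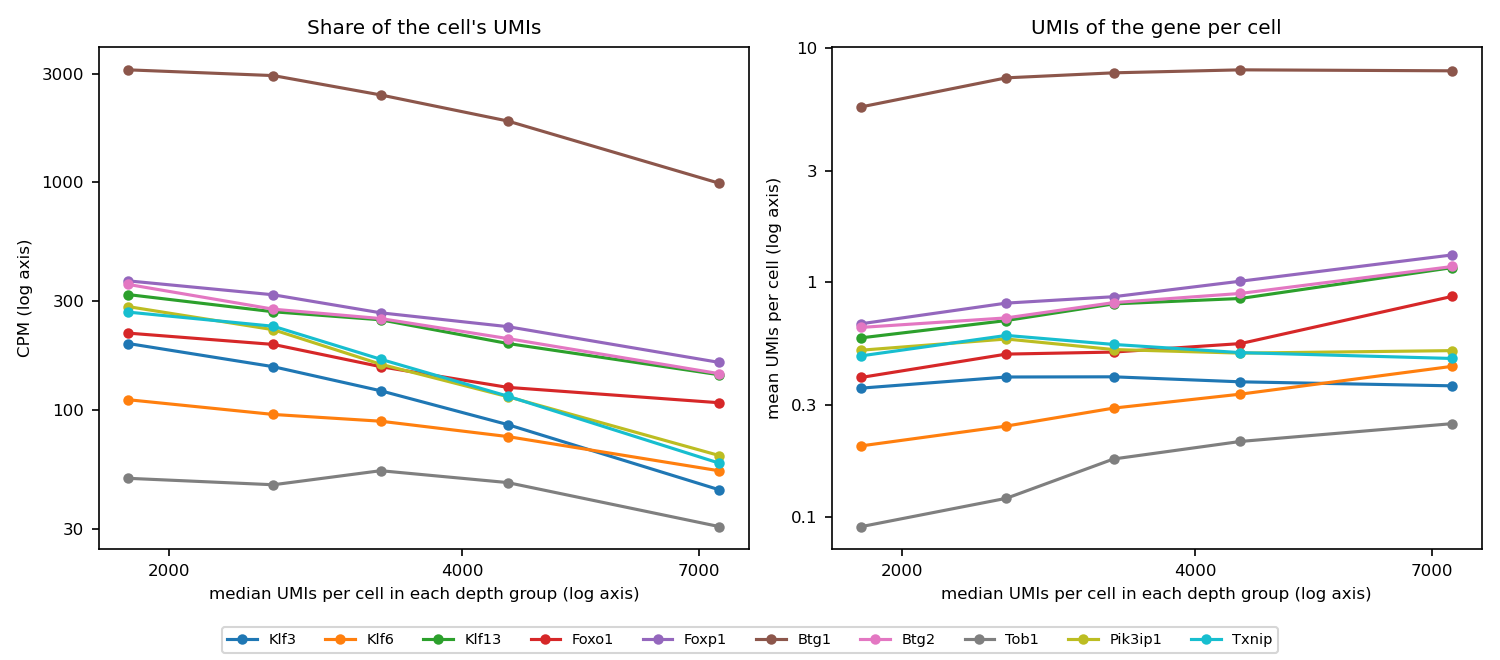
Level of each member against the median UMIs per cell of 5 depth groups of cells (horizontal axis, log scale), as CPM at left and as mean UMIs per cell at right (vertical axes, log scale). Klf3, Pik3ip1 and Txnip lose share as depth goes up, from 196, 284 and 269 CPM to 44.6, 63.0 and 58.4 CPM, while their UMIs per cell stay near level.

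A second deposited table of normalized values covers 7231 cells that the authors kept as G1, leaving 1042 others. In G1 over other cells, 8 of 10 members had a log2 ratio above 0, against 55.4% of genes, and their median was 0.35 against 0.05. Called higher were 3 of 10, where 3.35% of 8071 genes were, and none lower, where 7.38% were. Btg1 stood at 2005 against 1049 CPM (0.82), Pik3ip1 at 141 against 77.7 (0.80) and Tob1 at 45.2 against 26.4 (0.77). The members called are an RNA-deadenylation recruiter, the PI3 kinase inhibitor and a further antiproliferative protein. Klf3 (0.51), Txnip (0.36), Klf13 (0.34), Btg2 (0.29) and Foxp1 (0.20) were not called. Foxo1 (-0.10) and Klf6 (-0.19) lay below 0. In library 3, Klf3, Foxp1, Btg2 and Txnip had the opposite sign to the pooled ratio.

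The cells outside the G1 table were of 2 kinds. There were 405 with 5 or more G2 and M phase UMIs, with a median of 9533 UMIs per cell, and 637 with fewer, with a median of 2079 and a mitochondrial share of 4.51% against 2.24% in G1. Against the first kind, 6 members were called higher in G1, where 12.5% of genes were. Pik3ip1 stood at 141 against 39.6 CPM (1.74), Btg1 at 2005 against 685 (1.36) and Txnip at 135 against 60.4 (1.03). Klf3 (0.93), Tob1 (0.69) and Btg2 (0.61) were the others. Against the second kind, 1 member, Tob1, was called higher (45.2 against 21.9 CPM, 1.01), where 4.38% of genes were. Foxo1 was called lower (139 against 212 CPM, -0.59), where 5.73% of genes were, while Pik3ip1 was at -0.32. Haemoglobin genes summed to 1898 CPM outside the G1 table and 12.7 inside it. With cells stratified by depth and library, 0 members were called in the whole comparison. The share of all genes called was not computed at that setting.

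**Figure D5:**
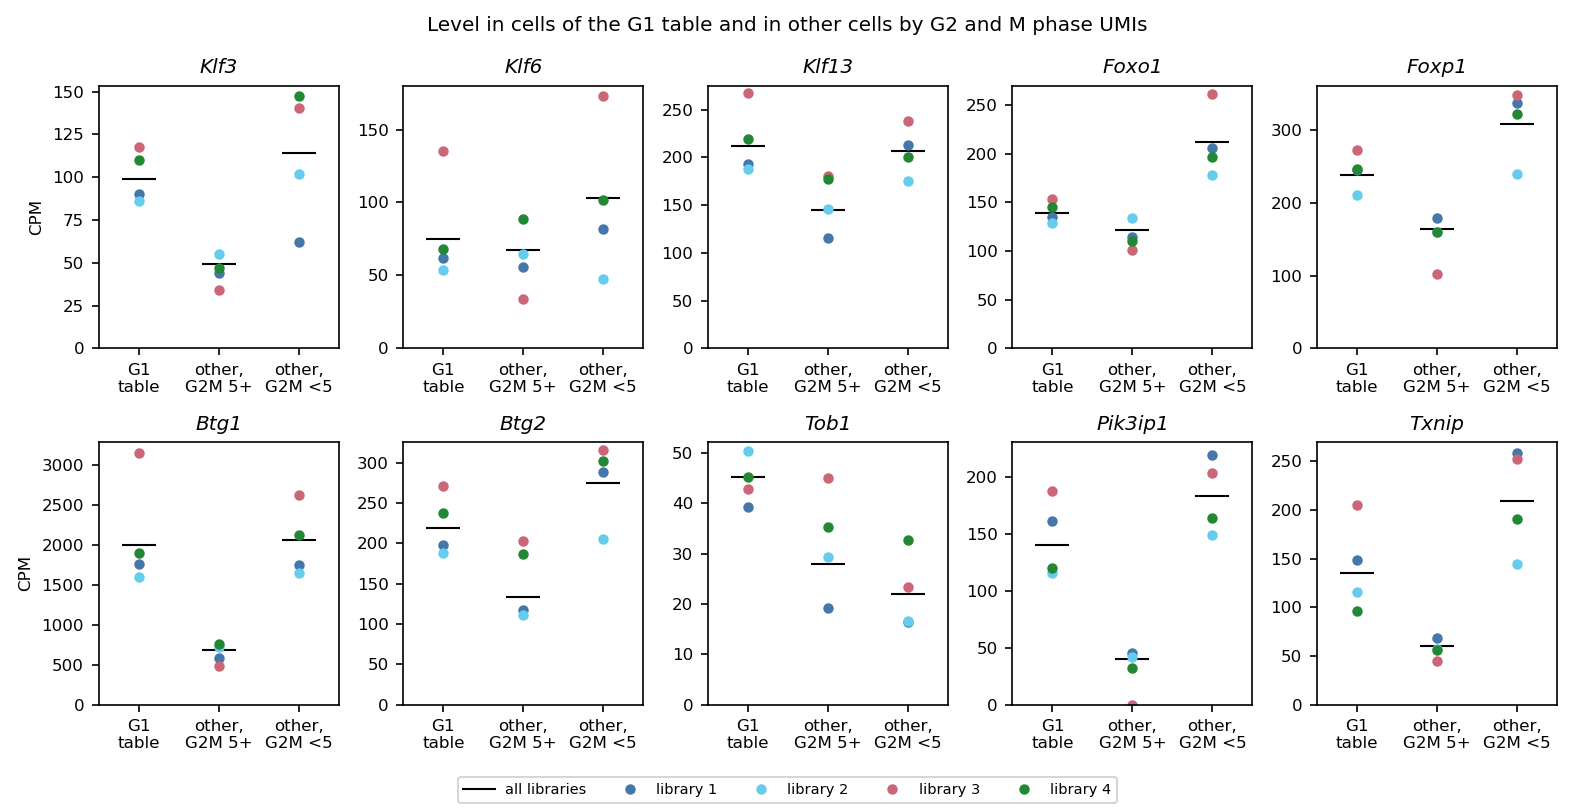
CPM of each member (vertical axis) in cells of the G1 table, in other cells with 5 or more G2 and M phase UMIs and in other cells with fewer (horizontal axis), with libraries as points and all libraries as a bar. Pik3ip1 is at 141, 39.6 and 183 CPM in the 3 sets, and Tob1 at 45.2, 28.0 and 21.9 CPM. The point of library 3 among other cells with 5 or more G2 and M phase UMIs rests on 9 cells.

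Single cells held few of these transcripts at a time. At 1811 UMIs, a cell had a UMI for 2.98 of the 10 members on average, 2.67% of cells had none and 16.4% had 5 or more. Before thinning the mean was 4.399. The thinned mean was 3.34 with S1pr1 and 2.82 without, 2.59 with Il2ra and 3.07 without, and 3.35 in library 3 against 2.76 to 2.98 in the others. Detection of S1pr1 and Il2ra was read on the thinned counts here.

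Likeness was read over 16 profiles, the 4 libraries by the 4 receptor classes, which share libraries and depth and so are given without a p. Pearson correlations of log2(CPM + 5) ranked 3966 genes. Klf13 was most like Peli1 (r = 0.986), Pik3ip1 most like Znrf1 (0.976), Btg1 most like Ptprc (0.975) and Btg2 most like Fyb (0.964). Txnip was most like Ccnd3 (0.959), Klf3 most like Itm2b (0.958), Foxo1 most like St8sia6 (0.9501), Klf6 most like Abcg1 (0.936) and Foxp1 most like Rinl (0.9296). Tob1 was most like Tnfrsf13b (0.862), and its median correlation with the other members was 0.32. Other members had medians between 0.63 and 0.84.

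Lists of related genes moved in part. With Il2ra, 5 of 21 other quiescence genes tested were called lower (median log2 ratio -0.35), where 3.06% of all genes were. Among them were Satb1 at 246 against 489 CPM, Tcf7 at 198 against 340 CPM and Tsc22d3 at 233 against 367 CPM. Satb1 and Tcf7 encode nuclear factors of thymocytes, and Tsc22d3 encodes the glucocorticoid-induced leucine zipper. All 5 genes were also called lower in the deepest depth group over the shallowest, with log2 ratios between -1.76 and -0.93. No list count with a receptor or in G1 cells was repeated within depth groups. Of 18 FOXO targets and regulators, 0 were called (median -0.20), and of 18 PI3 kinase, AKT and mTOR genes 1 was, Pik3r5, lower by 1.67-fold. Pik3r5, a PI3 kinase regulatory subunit, was also called higher with S1pr1, at 1.61-fold. Among other KLF genes (4 tested), BTG, TOB and CCR4-NOT genes (16) and partners of TXNIP (8), none was called with either receptor. In G1 cells 1 of 21 other quiescence genes was called higher, Slfn1 at 183 against 105 CPM, a share near that of all genes. Of all genes, 7.38% were called lower there. So were 3 of 18 FOXO genes (Skp2, Tnfsf10 and Ccng2) and 3 of 18 PI3 kinase genes (Phlpp1, Pik3cg and Akt1). Of 16 BTG, TOB and CCR4-NOT genes 2 were (Cnot6 and Cnot9), and of 8 partners of TXNIP 1 was. The last is Txn1, the thioredoxin that TXNIP binds, at 236 against 458 CPM. With so few genes per list, whether these shares differ from that of all genes was not tested. In the deepest depth group, 16 of 21 other quiescence genes, 9 of 15 FOXO genes and 8 of 11 PI3 kinase genes were called lower, where 22.9% of all genes were. Examples are Satb1 (224 against 781 CPM), Cdkn1b, a cyclin-dependent kinase inhibitor (45.8 against 131 CPM), and Inpp5d, a phosphoinositide phosphatase (19.9 against 44.1 CPM). Txn1 was called higher there (403 against 148 CPM), opposite to Txnip.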

How the data were processed

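The authors deposited 2 tables: UMI counts per gene and cell (8273 cells), and log2 values for 9571 genes in 7231 G1 cells. The deposited log2 values equal log2(count / cell factor + 1) to a relative deviation of 1.1e-14. Tools listed without roles, per the submitters' processing notes, are R 3.4.1, Cell Ranger 2.0.2 and CASAVA 2.20, and the build is mm10. Members and lists were chosen with earlier results of these data known. All 10 members are named, with up to 3 called genes per list and the most correlated gene per member. From the counts, CPM, Mantel-Haenszel ratios over libraries and 95% counting intervals were computed (0.5 UMIs added) with Python 3.11.15, numpy 2.4.6, scipy 1.17.1 and pandas 2.3.3. Scaling alternatives and a paired test over libraries used edgeR 4.0.16 in R 4.3.3. Cells held 795 to 32737 UMIs. No further cell filter was applied and no doublet caller was run; leaving out the deepest 2% was an alternative. Thinning to 1811 UMIs left out 52, 135, 415 and 224 cells of libraries 1 to 4. On data simulated for the Il2ra comparison (8065 genes), 25 of 50 genes changed 1.5-fold and 73 of 75 changed 2-fold were called, as was 0.0127% of unchanged genes. The simulated counts were Poisson draws from 1 profile per library for both sides. They held no spread beyond counting error and no difference linked to depth, so these rates do not cover either. Gene positions are those of the GENCODE annotation on GRCm38.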

Additional observations from a re-analysis of the deposited data

How the results depend on the processing

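The members' count called lower with Il2ra was 5 in the main analysis and 1 within 5 depth groups, after thinning and within depth groups of G1 cells. The S1pr1 count went from 1 to 0 with each cell counted alike. The G1 count went from 3 to 0 within depth groups, to 1 against other cells with under 5 G2 and M phase UMIs and to 6 against those with 5 or more; Pik3ip1 reversed to -0.32 against the former. Members at 1.5-fold or more between libraries went from 5 to 3 with each cell counted alike, and to 0 without library 3, in a range of 0 to 5 when any library was left out. Members detected per cell went from 2.98 to 4.399 without thinning. The cause of these moves was not tested. Leaving out 1 library gave 1 member with S1pr1, 5 with Il2ra, 3 to 4 in G1, 7 to 8 highest with S1pr1 alone, 9 to 10 lowest with Il2ra alone and 9 to 10 lower in the deepest depth group. With a library left out or each cell counted alike, the share of all genes was not computed. Over all genes the thresholds set the counts. With S1pr1, 24 genes higher became 63 at 50 or more UMIs, 84 at 1 or more and 3 at 2-fold, and 173 lower became 300, 382 and 33. With Il2ra, 320 higher became 489 at 1 or more UMIs and 42 at 2-fold, and 247 lower became 377, 424 and 22. For G1, 270 higher became 28 at 2-fold, and 596 lower became 933 at 1 or more UMIs and 344 at 2-fold. A paired fit was added after the data were seen, with calls at 1.5-fold or more and an adjusted p under 0.05. It was edgeR's quasi-likelihood test of counts summed per side and library, with the library as block. It called 1 member with S1pr1, 5 with Il2ra and 3 in G1, the same counts as the main analysis, where 0.756% of genes (61, against 24 in the main analysis) were higher with S1pr1, 3.15% lower with Il2ra and 3.27% higher in G1. Its p-values set the difference between sides against the spread of that difference over 4 libraries, with differences between libraries taken out. The libraries are of genotypes not known here and are not replicates of the same condition. No pairing of genotypes was possible.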
